A study of Drosophila melanogaster with 6 samples.

Results

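The synaptonemal complex and meiotic break genes are 7 genes of Drosophila melanogaster that build the protein ladder between paired chromosomes or make the DNA breaks of meiosis: c(3)G, c(2)M, cona, ord, solo, mei-W68 and mei-P22. They were chosen by name, with their differences between the groups of these arrays known, and all 7 were found among 13690 measured genes. In 6 cases the tables hold the gene under its own name. The entry for solo carries the older name CG33678 and was matched by its accession. Each gene is described by its brightest transcript entry over the 6 arrays; c(3)G has 3 entries and the others 1 each.

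Ovarian total RNA was measured on tiling arrays in a group of 3 samples labelled uap56 and a group of 3 labelled vasa, with adults fed wet yeast paste. The names point to a pair of RNA helicases: Hel25E makes UAP56, which acts in mRNA export, and vas makes Vasa, a germline protein. The series title sets UAP56 beside piRNA clusters and the silencing of transposons. The labels give no allele, strain background or age, and control ovaries were not analysed here, so each value compares one group with the other and neither with normal ovaries. Whether the 3 arrays of a group came from separate animals is not stated either, so every spread and p-value covers these arrays only and may be technical.

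In the female germline of the fly, the synaptonemal complex forms in early cysts inside the germarium, at the tip of each ovariole, and persists in the oocyte while the other cells of the cyst become nurse cells. Lateral elements run along each chromosome axis and rest on cohesins. Transverse filaments span the gap between them, and a central element sits in the middle. Recombination starts from programmed DNA breaks, and in flies the complex assembles without needing those breaks.

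Intensities are the authors' normalized values on a linear scale with a floor of 1. The median gene lay between 124 and 133 and the lower quartile of genes between 41.7 and 45.7 on the 6 arrays. Values of different genes come from different probes and are not ranked against each other here; the quartile and the median serve to show how near the bottom of the scale a gene lay. Log2 Pearson correlations across genes, which are not independent replicates, were 0.874 to 0.900 between arrays of a group and 0.863 to 0.881 between groups. The targets were labelled as double-stranded DNA, per the labels, which does not keep the strand. Signal from overlapping genes therefore cannot be told apart where their transcripts cover the same bases. The overlaps given below are of whole gene models, introns included, and overlap of exons was not measured.

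The groups were first compared at the genes they are named for. The vas intensity was 2045, 1686 and 1364 in uap56 and 267, 242 and 383 in vasa, without overlap between the groups. In limma the log2 difference, uap56 minus vasa, came to 2.52 ± 0.22 (SE; adjusted p = 0.00183). Hel25E overlapped between the groups, with 1419 ± 326 (SD, n = 3) in uap56 and 1610.3 ± 192 in vasa, and its log2 difference was -0.20 (adjusted p = 0.642 in limma), which without uap56 replicate 3 was 0.00399. Among ovarian markers the chorion genes were bright, and the summed intensity of these 9 genes was 97625 to 132526 in uap56 and 84942 to 89186 in vasa.

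Of the 7 genes, c(3)G and c(2)M had the largest differences, in opposite directions. The transverse filament gene c(3)G was 4.47-fold higher in vasa, and the lateral element gene c(2)M was 3.00-fold higher in uap56. The break gene mei-W68 was 1.18-fold higher in uap56. For cona, ord, solo and mei-P22 the arrays of the groups overlapped. Since the genes were chosen on this contrast, their values are a description without a test. The arrays did not overlap for 3 of the 7 genes and for 23.5% of all genes.

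**Figure D1:**
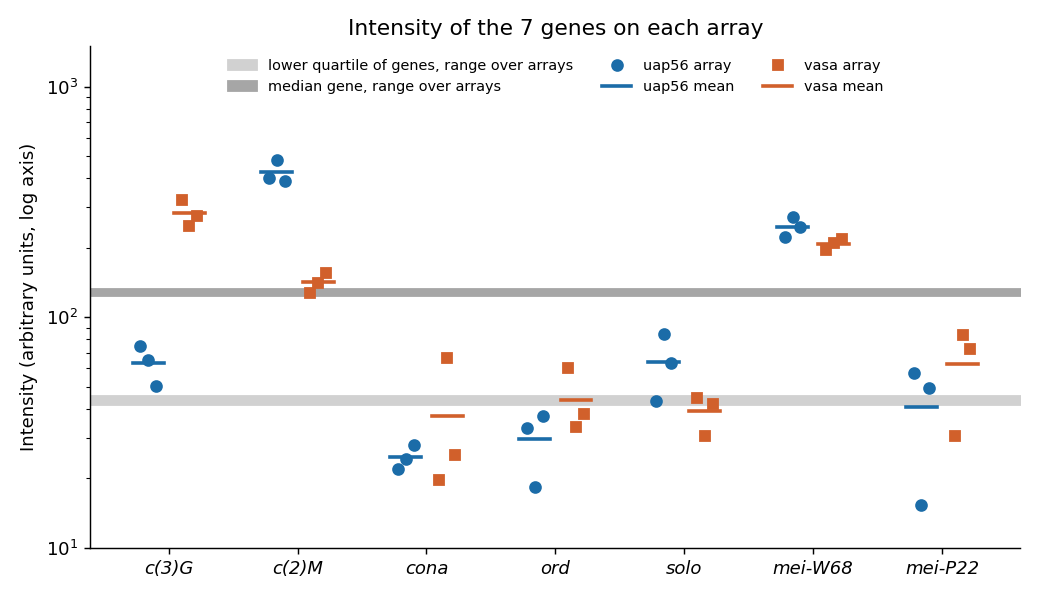
Intensity of each gene (log axis, arbitrary units) on the 3 uap56 arrays (circles) and the 3 vasa arrays (squares), with horizontal bars at the group means. Grey bands give the range over arrays of the lower quartile and the median of all genes. The groups separate for c(3)G, c(2)M and mei-W68 and overlap for cona, ord, solo and mei-P22.

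The product of c(3)G is a coiled-coil protein that forms the transverse filaments, the rungs between the axes. Its intensity was 74.7, 65.3 and 50.1 on the uap56 arrays and 321, 248 and 276 on the vasa arrays. Every vasa array lay above every uap56 array, and each vasa value was above the median gene while each uap56 value was below it. Group means were 63.4 ± 12.4 (SD, n = 3) in uap56 and 281 ± 36.9 in vasa, which is -2.16 on the log2 scale (uap56 minus vasa) against a log2 SD of 0.29 within uap56 and 0.19 within vasa. All 3 transcript entries of the gene behaved alike. Their folds toward vasa were 4.32, 4.47 and 4.39, and none of the 3 overlapped between the groups. Among all genes, 150 (1.10%) had a larger difference toward vasa. The uap56 values are low enough for the treatment of weak signals to matter, and with a pseudocount of 16 the log2 difference was -1.91.

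The product of c(2)M belongs to the lateral element and resembles the kleisin subunit of cohesin. Intensities were 402, 479.8 and 390.2 in uap56 and 127, 141 and 156 in vasa. The lowest uap56 array was more than any vasa array, and the group means were 424 ± 48.6 (SD, n = 3) and 141 ± 14.1. The log2 difference was 1.58, with a log2 SD of 0.16 in uap56 and 0.14 in vasa. A larger difference toward uap56 was found in 295 genes (2.15%).

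The opposite differences can be put in 1 number per array, the intensity of c(2)M over that of c(3)G, which does not depend on how arrays were scaled to each other. It was 5.39, 7.34 and 7.78 on the uap56 arrays and 0.397, 0.569 and 0.564 on the vasa arrays. Only its change between arrays can be read, since the genes are measured by different probes. The mean log2 ratio was 2.76 ± 0.29 (SD, n = 3) in uap56 and -0.99 ± 0.30 in vasa, a difference of 3.75, or 13.4-fold. With any single array left out the difference stayed between 3.57 and 3.91.

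Corona, the product of cona, is a small protein of the central region that works with C(3)G. Its intensity was 21.99, 24.3 and 27.7 in uap56 and 19.7, 66.7 and 25.2 in vasa. On 5 of the 6 arrays it was below the lower quartile of genes, and vasa replicate 2 alone was higher. The log2 difference of -0.39 rests on that array, being 0.14 without it.

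Both ord and solo encode proteins of meiotic sister chromatid cohesion, which the lateral element needs. For ord the intensities were 32.9, 18.3 and 37.3 in uap56 and 60.3, 33.4 and 38.0 in vasa, with overlap between the groups and 5 of the 6 arrays below the lower quartile. The log2 difference was -0.59, and it ranged from -0.28 without uap56 replicate 2 to -0.79 without uap56 replicate 3. The value without vasa replicate 1, the brightest array for this gene, was -0.34.

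For solo the intensities were 43.1, 84.5 and 63.5 in uap56 and 44.7, 30.5 and 41.9 in vasa. The lowest uap56 array overlapped the vasa arrays, and 4 of the 6 arrays were below the lower quartile of genes. The log2 difference was 0.67, or 0.44 without uap56 replicate 2. This gene lies at the vas locus, where its gene model overlaps both vas and vig on the Release 6 RefSeq annotation, and its transcripts share exons with vas. The same comparison gave 2.52 for vas and 0.02 for vig (292 ± 63.9 in uap56 and 285 ± 42.7 in vasa, n = 3 each, adjusted p = 0.975 in limma), and the sign of the vig value turned in several settings. How much of the solo signal comes from vas transcripts was not tested.

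The product of mei-W68 is the fly relative of Spo11, the enzyme that cuts DNA to start recombination. Its intensity was 224, 271 and 245 in uap56 and 195, 210.1 and 218.3 in vasa. The lowest uap56 value was just above the highest vasa value, so the groups did not overlap, by a small margin. Means were 247 ± 23.5 (SD, n = 3) and 208 ± 11.6, and the log2 difference was 0.24. The large gene par-1, a kinase gene whose model overlaps mei-W68, differed by -0.05 (adjusted p = 0.920 in limma).

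The product of mei-P22 works with Mei-W68 in making breaks. Intensities were 57.2, 15.3 and 49.1 in uap56 and 30.6, 84.0 and 72.9 in vasa. Each group held 1 low array, and the groups overlapped. On these 2 of the 6 arrays the gene was below the lower quartile of genes. The log2 difference was -0.71, and with 1 array left out it ran from -1.16 without vasa replicate 1 to -0.11 without uap56 replicate 2.

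The dimmer genes varied more between arrays of a group. The pooled log2 SD was 0.11 for mei-W68, 0.15 for c(2)M and 0.25 for c(3)G. It was 0.40 for solo, 0.50 for ord, 0.67 for cona and 0.92 for mei-P22. The median over all genes was 0.34, with 0.24 among genes above the median intensity and 0.74 among genes below the lower quartile. The log2 differences of cona and mei-P22 were smaller than their own SD, and those of ord and solo were larger than their SD.

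**Figure D2:**
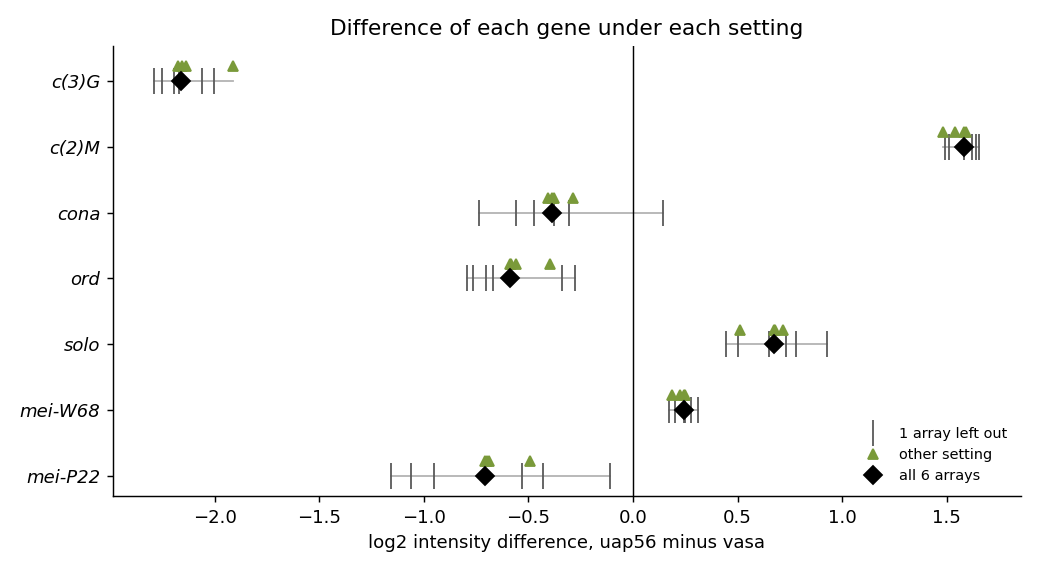
Log2 intensity difference, uap56 minus vasa, of each gene with all 6 arrays (diamonds), with each array left out in turn (ticks) and under 4 other settings of scaling, pseudocount or entry (triangles). All values of c(3)G lie between -2.29 and -1.91 and those of c(2)M between 1.48 and 1.66, while those of cona lie on both sides of 0.

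Genes that overlap or flank c(3)G and c(2)M were read in the same fit, since the arrays do not keep the strand. On the Release 6 RefSeq annotation the model of c(2)M overlaps CG5861. The intensity of CG5861 was 433, 535 and 504 in uap56 and 221, 254 and 287 in vasa, so it moved in the same direction as c(2)M and its groups did not overlap. In limma it had 0.95 ± 0.18 (SE; adjusted p = 0.0227) on the log2 scale, where c(2)M had 1.58. Whether either gene's probes carry signal of the other was not tested. The model of c(3)G overlaps Uros2, whose arrays overlapped, with 31.6 ± 7.55 (SD, n = 3) in uap56 and 63.5 ± 34.6 in vasa (log2 difference -0.90, adjusted p = 0.354 in limma). The model of cona overlaps Vha100-4, at 51.4 ± 9.88 and 49.0 ± 13.0. The models of ord and mei-P22 overlap no other gene.

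Among the 10 measured genes on each side of c(2)M, 2 of 20 passed an adjusted p of 0.05 in limma toward uap56 and 0 toward vasa, where 3.83% of all genes passed in either direction. The 2 neighbours that passed were CG5861 and fzy, which encodes the Cdc20 activator of the anaphase-promoting complex and had a log2 difference of 1.04 (adjusted p = 0.0112). The median of the 20 was 0.21, beside 0.02 for all genes, and 8 of the 20 had an unadjusted p under 0.05, where 18.2% of all genes did. These 8 lay on both sides of 0, and the log2 differences of the 20 ran from -3.25 to 1.04. Of the 20 around c(3)G none passed and 2 had an unadjusted p under 0.05, with a median of 0.00367. The gene c(2)M lies on arm 2L, like vas, with 88 measured genes between them. Of those 88 genes, 2 passed toward vasa and 0 toward uap56, where 1.35% and 2.48% of all genes did. The 2 were wwk (-4.95, adjusted p = 3.93e-06) and esg (-3.02, adjusted p = 0.00575), which encodes a transcription factor of the Snail family. The genes fzy, wwk and esg were named after their values were seen.

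**Figure D3:**
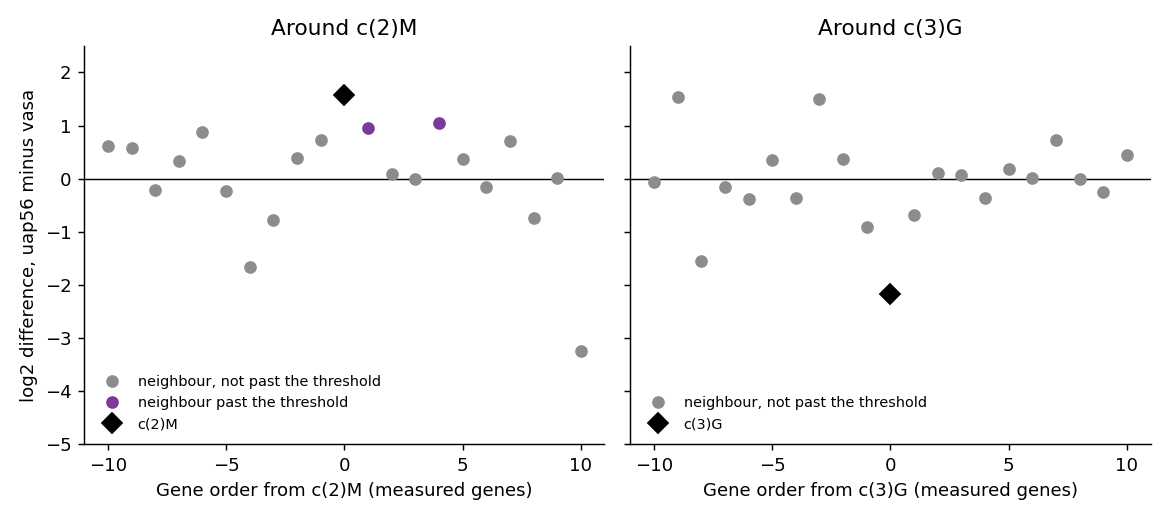
Log2 intensity difference, uap56 minus vasa, of c(2)M and c(3)G (diamonds) and of the 10 measured genes on each side of them in RefSeq gene order (circles; purple where the adjusted p was at most 0.05). Next to c(2)M the overlapping gene CG5861 and fzy are past the threshold, both above 0, and next to c(3)G none is.

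The genes whose pattern over the 6 arrays was nearest to that of c(3)G, among 6845 genes above the median, were CG17486, CG42200 and CG3107. Distances between the mean-centred log2 profiles were 0.50, 0.54 and 0.56, and the genes were 3.82-fold, 4.94-fold and 3.53-fold higher in vasa. For c(2)M the nearest were tyn, the cytochrome P450 gene Cyp9f2 and atilla, at distances of 0.25, 0.30 and 0.30. These were 3.02-fold, 2.86-fold and 3.15-fold higher in uap56. With 2 groups of 3 arrays such likeness reflects mainly the difference between the groups.

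The other meiotic genes came from 5 lists of 52 genes, chosen with earlier results of these data known. In limma 3 of the 52 were higher in uap56, where 2.48% of all genes were, and 0 in vasa, where 1.35% were. At an unadjusted p under 0.05 the counts were 14 and 3, where 10.8% of all genes lay toward uap56 and 7.38% toward vasa. Plain limma, with neither the intensity trend nor the robust option, called 0 in each direction. The median log2 difference of the 52 was 0.18, beside 0.02 over all genes, with 32 above 0 and 20 below. The genes mei-217 and mei-218 hold the same values on all arrays and are 1 measurement, though both are counted in the 52.

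Among 11 genes of break repair and strand exchange, 2 were higher in uap56 in limma and 0 in vasa (2.48% and 1.35% of all genes). At an unadjusted p under 0.05 the counts were 5 and 0 (10.8% and 7.38% of all genes). Plain limma called 0 in either direction. The list's median log2 difference was 0.35, with 8 genes above 0 and 3 below.

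Of 10 genes of crossover formation, Mcm5 alone passed in limma, toward uap56 (2.48% of all genes toward uap56 and 1.35% toward vasa). At an unadjusted p under 0.05 limma counted 1 toward uap56 and 2 toward vasa (10.8% and 7.38% of all genes). Mcm5 encodes a subunit of the replicative helicase that also acts in crossing over in flies. It stood at 2505 ± 142 (SD, n = 3) in uap56 and 1456 ± 148 in vasa, 1.73-fold (adjusted p = 0.0162 in limma), and its arrays did not overlap. Its call was lost in the fits without uap56 replicate 2 (adjusted p = 0.0755), vasa replicate 2 (0.0612) and vasa replicate 3 (0.0745), and with the replicate block (0.0503). Plain limma did not call Mcm5 either (adjusted p = 0.151). With mei-217 and mei-218 both counted, the median of this list was -0.39, with 4 genes above 0 and 6 below.

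No gene passed in the lists of cohesins (14 genes, median 0.13), other complex and break genes (5 genes, median 0.35) or checkpoint (12 genes, median 0.17). At an unadjusted p under 0.05 limma counted 3, 0 and 5 of them toward uap56 and 0, 0 and 1 toward vasa, against the same 10.8% and 7.38% of all genes. The cohesins with the smallest p were the loader gene Mau2 (400 ± 73.8 in uap56 and 262 ± 33.4 in vasa, SD, n = 3 each; log2 difference 0.60, adjusted p = 0.139 in limma) and vtd (0.37, adjusted p = 0.198), which encodes the mitotic kleisin Rad21. Among the 5 other complex and break genes these were vilya (127 ± 49.96 and 210 ± 80.8, -0.75, adjusted p = 0.345 in limma), a RING-domain gene of break formation, and trem (0.38, adjusted p = 0.414), a zinc-finger gene of break formation. Among checkpoint genes the kinase genes grp, or Chk1 (0.64, adjusted p = 0.0871 in limma), and lok, or Chk2 (0.45, adjusted p = 0.0915), had arrays that did not overlap and did not pass.

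**Figure D4:**
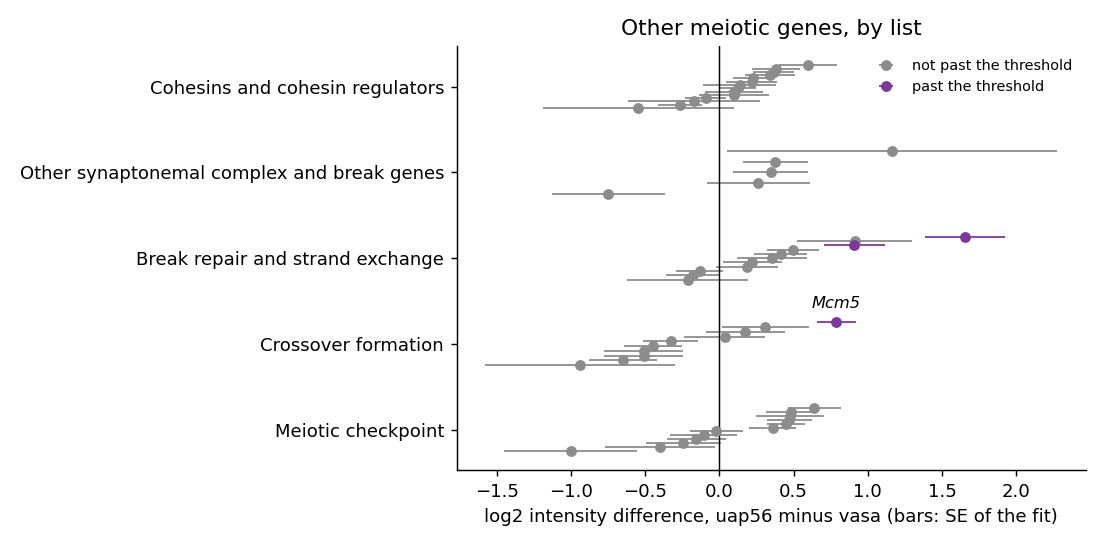
Log2 intensity difference, uap56 minus vasa, of the 52 other meiotic genes by list, with bars for the SE of the limma fit and purple points for an adjusted p of at most 0.05. The 3 genes past the threshold, Mcm5 among them, lie above 0.

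Markers of cell types and stages were read in the same fit, since in whole ovaries fewer cells of a type and less RNA per cell cannot be told apart. In limma 2.48% of all genes were called higher in uap56 and 1.35% in vasa. Of 8 early germline genes, 1 was higher in uap56 (nanos, log2 difference 0.69, adjusted p = 0.0171 in limma) and 2 in vasa. These were ovo, with -0.74 and an adjusted p of 0.0422 in limma, and the gene mei-P26, with -1.05 (adjusted p = 0.0478). Of these 8 genes, 1 had an unadjusted p under 0.05 in limma toward uap56 and 4 toward vasa (10.8% and 7.38% of all genes). The median was -0.40, and the summed intensity was 9013 to 10738 in uap56 and 9119 to 10661 in vasa. Of 6 genes of oocyte selection none passed in limma, while 4 had an unadjusted p under 0.05 toward vasa, where 7.38% of all genes did. Their median was -0.36, with 2 genes above 0 and 4 below. Their sums were 6999 to 8981 in uap56 and 9721 to 10607 in vasa, which do not overlap and are higher in vasa. The brightest genes weigh most in such a sum. Of 9 chorion genes, Cp15 and Cp16 were higher in uap56 (0.71, adjusted p = 0.0291, and 0.91, adjusted p = 0.0249, in limma) and the others did not pass. All 9 lay above 0, with a median of 0.29. At an unadjusted p under 0.05 limma counted 4 toward uap56 and 0 toward vasa. Each of these 5 calls was lost in the 4 fits that left out replicate 2 or 3 of either group. There the adjusted p in limma was 0.0530 to 0.0815 for nanos, 0.0987 to 0.165 for ovo and 0.129 to 0.171 for mei-P26. For Cp15 it was 0.0606 to 0.112 and for Cp16 0.0524 to 0.0969. With the replicate block nanos (0.0505), ovo (0.0983) and mei-P26 (0.0929) did not pass, and Cp15 did not after quantile normalization (0.0879). Plain limma, with neither the intensity trend nor the robust option, lost all 5 calls (adjusted p 0.164 to 0.210). With the trend but not the robust option, ovo (0.0534), mei-P26 (0.0652) and Cp15 (0.0502) did not pass. The part of these marker differences in the values of c(3)G and c(2)M was not tested.

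None of the other marker genes passed in limma: 9 of vitelline membrane and yolk (median -0.07, 2 with an unadjusted p under 0.05 toward uap56), 4 of follicle cells (median -0.29), 8 of testis (median -0.00504), 6 of muscle (0.32), 3 of fat body (-0.26) and 5 of gut (0.09), the last 5 lists with 0 genes at an unadjusted p under 0.05. Summed intensities of the testis list were 467 to 517 in uap56 and 551 to 624 in vasa, without overlap, and 3 of its 8 genes were below the lower quartile on all arrays. The ranges overlapped between the groups for vitelline membrane and yolk (60100 to 80429 in uap56 and 60676 to 77537 in vasa) and follicle cells (1591 to 2120 and 1945 to 2577). They also overlapped for muscle (2001 to 3870 and 1697 to 3203), fat body (270.5 to 436 and 309 to 576) and gut (415 to 557 and 376 to 461). No marker gene was at the floor on all 6 arrays.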

How the data were processed

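Per the labels, the source was total ovary RNA, the label was biotin, and the labelled double-stranded DNA was hybridized to tiling arrays. The deposited values are an intensity per RefSeq transcript that the authors summarised and normalized. How this was done, with which probes and on which genome build, is not given in the sources used here. For arrays no read depth applies, and their number limits the precision. Log2 was taken with no pseudocount after 393 of 21158 entries at 0 on all arrays were left out. Of the entries, 19234 were named by accession and 1313 by gene name through a Release 6 RefSeq table, and 611 kept the name in the file. The brightest entry stood for each gene. Groups were compared with limma 3.58.1 in R 4.3.3 (intensity trend and robust, two-sided, Benjamini-Hochberg over 13690 genes, threshold 0.05). It called 525 genes, 340 higher in uap56 and 185 in vasa. The fit was also run on simulated data whose noise followed the intensity trend by design. That run cannot show how the fit does on other noise. The members, the lists and the trend fit were chosen with earlier results of these data known. The genes named are the members, vas, vig and Hel25E, the list genes past the threshold, the 2 with the smallest p in each meiotic list where none passed, and the 3 nearest to c(3)G and c(2)M; genes overlapping a member, and fzy, wwk and esg, were added. The list genes of break repair that passed are counted but not reported singly here. Alternatives covered scaling, variance model, weak signals, entries per gene, block, threshold and each array. Transposon tables were not used.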

Additional observations from a re-analysis of the deposited data

How the results depend on the processing

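The directions of c(3)G, c(2)M, ord, mei-W68, mei-P22 and solo and of the c(2)M to c(3)G ratio held in all 10 alternatives run for each, while cona was 0.14 without vasa replicate 2 (-0.74 to 0.14 with 1 array left out). A pseudocount of 16 moved c(3)G to -1.91 and the log2 ratio difference to 3.39. Of all genes, 340 were called higher in uap56 and 185 in vasa. The counts were 1 and 1 in plain limma with neither the intensity trend nor the robust option, 140 and 86 with the replicate block, 32 and 25 at a threshold of 0.01, and 28 to 307 and 29 to 202 with 1 array left out. Quantile normalization gave 344 toward vasa and 376 toward uap56, so 52.2% of calls were toward uap56 against 64.8%. Without uap56 replicate 2 the counts were 28 toward uap56 and 42 toward vasa, 40.0% toward uap56. Of the other meiotic genes, 3 were called toward uap56, 0 in plain limma, 1 with the replicate block, 0 at 0.01 and 0 to 2 with 1 array left out, and 0 toward vasa in every setting run. The cause of these changes was not tested, and the fits with 1 array left out also rest on fewer arrays. Replicate numbers share no stated source, and deviations of same-numbered arrays had correlations between -0.0281 and 2.88e-05, so they were not taken as pairs. Hel25E (-0.20) ran from -0.31 to 0.00399 with 1 array left out, its sign turning without uap56 replicate 3. The difference of vig (0.02) ran from -0.12 to 0.21 with 1 array left out and was -0.0583 after quantile normalization.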
